A study of Arabidopsis thaliana with 2 samples.

Results

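APETALA1 (AP1, AT1G69120), CAULIFLOWER (CAL, AT1G26310) and FRUITFULL (FUL, AT5G60910, named AGL8 in the peak list) are 3 closely related MADS-box transcription factor genes of Arabidopsis thaliana. Their peaks of LEAFY (LFY) binding were taken from a list of 529 peaks made by chromatin immunoprecipitation and sequencing (ChIP-seq). A peak was counted for a gene when the authors' annotation named that gene as the nearest promoter or as the place of the peak centre. This gave 5 peaks, with 2 at AP1, 2 at CAL and 1 at FUL. The study has 2 libraries, both from inflorescences of ap1 cal1 mutants carrying LFY-GR under the constitutive 35S promoter and grown for 4 weeks. LFY-GR joins LFY to the hormone-binding domain of the glucocorticoid receptor and moves to the nucleus when dexamethasone is present. Tissue was taken 4 h after 10 µM dexamethasone. The LFY ChIP group is 1 library precipitated with a rabbit antiserum to LFY, and the input group is 1 library of chromatin set aside before that step. No further library of either kind and no untreated one is available here, so the values have no replicate error and no peak can be tied to the hormone step. The antiserum does not separate LFY-GR from native LFY. Sequencing depth is unknown here, because the list gives peaks and scores without read counts.

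LFY is a plant-specific transcription factor that turns new lateral meristems into flowers. AP1 and CAL act downstream of it and beside it to fix floral meristem identity, and plants lacking both form heads of proliferating meristems like those of a cauliflower. FUL acts with them in the transition to flowering and later in the fruit. AP1 and CAL are the genes mutated in the plants used here, while FUL is not named in the genotype. The labels do not give the molecular nature of the alleles, and whether the mutations or the similarity of the 3 genes affected where reads were placed was not tested.

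All 3 genes had a peak, and each had one placed at its promoter. AP1 and CAL each had another peak centred within the transcribed gene. For comparison, 1.50% of 37899 nuclear genes were tied to a peak by the same rule, and 1.32% when only the nearest promoter was counted. The genes were chosen with these results known, so their count is a description.

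The promoter peak of AP1 was the strongest at the 3 genes. It ran over chr1:25985943-25987325 (TAIR10), was 1383 bp wide and had a score of 1710.2, which is the peak caller's value as the authors deposited it. It ranked 2 of 529 by score, and 0.189% of peaks scored higher. Among the 214 peaks classed as promoter it ranked 1, against a median promoter score of 122. Its centre lay 321 bp upstream of the transcription start site (TSS), and it reached from 1012 bp upstream to 370 bp downstream, so that it covered the TSS.

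The promoter peak of CAL lay at almost the same distance from its gene but far lower in the list. It ran over chr1:9103281-9104579, was 1299 bp wide and had a score of 75.0. It ranked 403 of 529, with 76.0% of peaks scoring higher, and 162 among the 214 promoter peaks. Its centre was 327 bp upstream of the TSS, 6 bp from the position of the AP1 peak when both genes are aligned at the TSS. The CAL peak reached from 976 bp upstream to 322 bp downstream, and the whole of its 1299 bp fell within the span of the AP1 peak in that alignment. The 2 promoters therefore had peaks in matching places, at ranks 2 (AP1) and 403 (CAL). Scores of 1 list rank its peaks and do not measure how much LFY was bound.

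Measured from its listed TSS, the peak of FUL was placed further into the gene. It ran over chr5:24504851-24506849, was 1999 bp wide and had a score of 155.4. It ranked 235 of 529, with 44.2% of peaks scoring higher, and 88 among the 214 promoter peaks. The authors' annotation classed it as promoter of transcript AT5G60910.2, while its distance was given to the start of AT5G60910.1, from which the centre lay 293 bp downstream. Of the 214 promoter peaks, 28 were listed with another transcript of the same gene in this way, and 11 were centred more than 100 bp downstream of the listed TSS. The FUL peak reached from 706 bp upstream to 1292 bp downstream of the AT5G60910.1 TSS. Its place relative to the start of AT5G60910.2 is not given, and the comparison with AP1 and CAL could differ from there. Aligned at the TSS, with AT5G60910.1 used for FUL, the FUL peak shared 1077 bp with the AP1 promoter peak and 1029 bp with the CAL promoter peak. It also reached 512 bp into the span of the AP1 intron peak and 828 bp into that of the CAL intron peak.

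**Figure D1:**
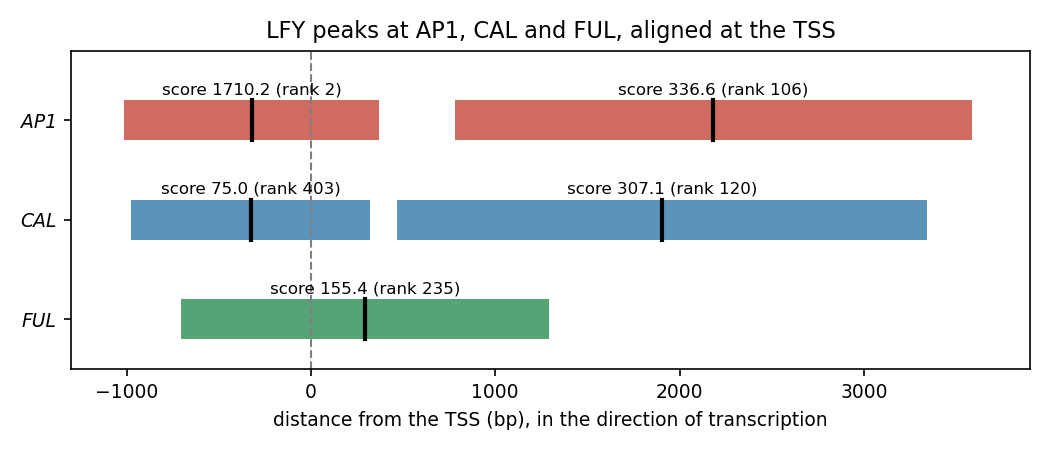
Peaks at AP1, CAL and FUL drawn as bars against distance from the TSS in bp, in the direction of transcription, with the centre of each peak as a black line and the TSS as a dashed line. The promoter bars of AP1 and CAL are centred at -321 and -327 bp and their intron bars at 2183 and 1904 bp. The single FUL bar, drawn from the TSS of AT5G60910.1, is centred at 293 bp and spans the space between.

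Promoter peaks were centred between -995 and 647 bp from the listed TSS and had a median width of 1112 bp. Covering the TSS was common among them, which largely follows from these limits and widths. Of the 214, 172 did so (80.4%, 95% Wilson interval 74.5 to 85.1, for counting error only), as did the promoter peaks of AP1, CAL and FUL. The centres of promoter peaks had a median distance of -214.5 bp, with quartiles at -545 and -57 bp. AP1 and CAL fell inside that middle range and FUL, measured from AT5G60910.1, on the downstream side of it.

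AP1 and CAL also shared a peak centred in intron 4 of 7. At AP1 it ran over chr1:25982728-25985532, was 2805 bp wide and had a score of 336.6, ranking 106 of 529 and 8 among 38 intron peaks. At CAL it ran over chr1:9100261-9103138, was 2878 bp wide and had a score of 307.1, ranking 120 of 529 and 10 among the intron peaks. The scores of these 2 peaks stood 14 ranks apart, while the promoter peaks of the same genes stood 401 ranks apart. The median score of the intron peaks was 126, below both. Ranked by score divided by width, these peaks stood at 230 (AP1) and 250 (CAL) of 529.

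The intron peaks were also alike in position. The 2 CAL distances placed its TSS at chromosome 1 position 9103603 on the minus strand, with 0 bp between the estimates. The AP1 promoter peak placed the AP1 TSS at position 25986313, also on the minus strand, since the peak inside the gene lay at lower coordinates. From these starts the intron peak of AP1 was centred 2183 bp downstream and that of CAL 1904 bp downstream, 279 bp apart. The AP1 peak spanned 781 to 3585 bp downstream of the TSS and the CAL peak 465 to 3342 bp, so that 2562 bp were shared in the alignment. Each was much wider than the intron peaks in general (median 1563 bp), and they ranked 14 (AP1) and 12 (CAL) of 529 by width. A peak this wide covers more of the gene than the intron named for its centre. The list gives no summit, so the strongest point within a peak is not known here.

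By the nearest-promoter column alone, the intron peak of AP1 would be assigned to AT1G69110, the pseudogene next to AP1. Its centre was listed 2074 bp upstream of AT1G69110, against 2183 bp downstream of the AP1 TSS. A difference of 109 bp therefore decided the assignment, although the centre lay inside AP1. Of the 38 intron peaks, 5 had a nearest promoter other than that of the gene they lay in. The CAL intron peak was assigned to CAL by both columns.

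**Figure D2:**
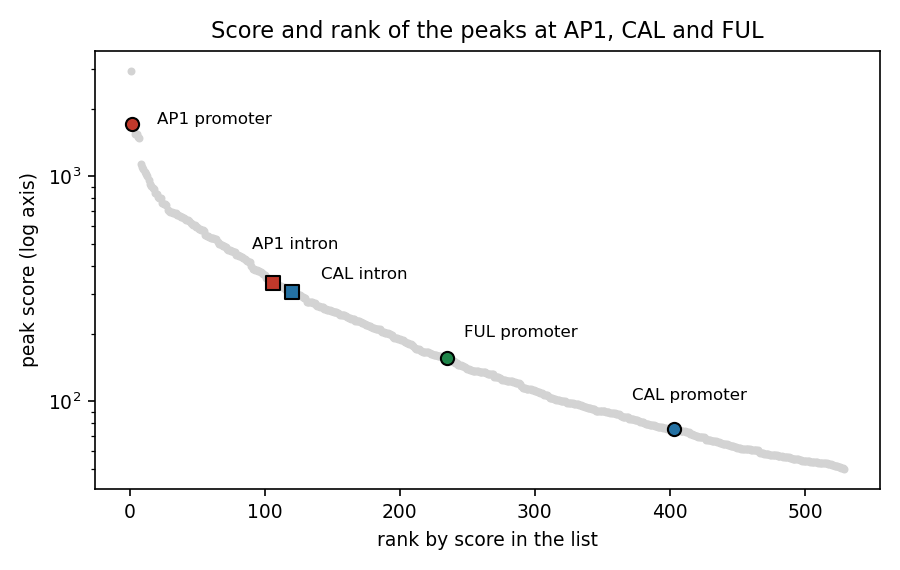
Score of each of the 529 peaks on a log axis against its rank in the list, with the promoter peaks of AP1, CAL and FUL as coloured circles, the intron peaks of AP1 and CAL as coloured squares and all other peaks in grey. The intron peaks lie close together at ranks 106 and 120, while the promoter peaks are spread over ranks 2, 235 and 403.

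The order of promoter and intron was opposite in AP1 and CAL. At AP1 the promoter peak had the higher score, 1710.2 against 336.6 in the intron. At CAL the intron peak had the higher score, 307.1 against 75.0 in the promoter. With 1 peak at each place and no replicate, the difference between the genes could not be tested. At both genes the peaks nearly touched. The gap was 410 bp at AP1 and 142 bp at CAL, and together the pair covered 4598 bp at AP1 and 4319 bp at CAL. Of 524 pairs of neighbouring peaks on the same chromosome, 11 were separated by less than 500 bp, and the median gap was 108 kb. CAL had gap number 2 and AP1 gap number 8 from the smallest. Of those 11 pairs, 8 were tied to a common gene. Among them, apart from AP1 and CAL, were BOP1, a regulator of leaf and flower boundaries, with a gap of 432 bp, and the bZIP gene FDP (BZIP27) with 451 bp. The rest were AT2G19090 (55 bp, the smallest gap), IQD22 (145 bp), AT3G12920 (343 bp) and AT3G07350 (489 bp).

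No other gene in the list had the arrangement of AP1 and CAL when places are taken as the annotation classed them. Of 214 genes with a promoter peak and 37 with an intron peak, AP1 and CAL were the 2 that had both. The centres of 2 of the 38 intron peaks fell in an intron 4 of 7, and these were the AP1 and CAL peaks. Whatever the number of introns in the gene, intron 4 held 3 of the 38, and introns 1 and 2 held 26. When peaks in exons and UTRs were counted as well, RAX1 (MYB37, AT5G23000), a MYB gene of axillary meristem formation, joined them, with a promoter peak of 685.4 and a peak of 802.3 in exon 3. FUL had 1 peak and did not join. Peaks further upstream were classed as intergenic and were not counted. CUC3 and CSLA02 each had an intron peak and an intergenic peak, the latter centred at -1702 bp (CUC3) and -2163 bp (CSLA02). ATH1 had an exon peak and an intergenic peak centred at -1002 bp. The count of 2 therefore depends on the limit of the promoter class, which was not varied.

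**Figure D3:**
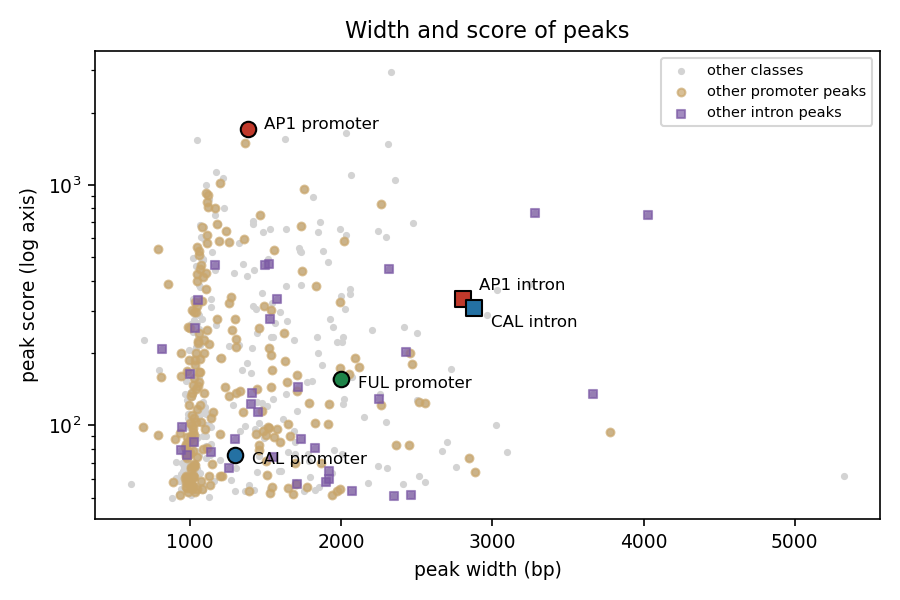
Peak score on a log axis against peak width in bp for all 529 peaks, with peaks of AP1, CAL and FUL in colour, other promoter peaks as tan circles, other intron peaks as purple squares and the remaining classes in grey. The AP1 and CAL intron peaks lie beside each other at 2805 and 2878 bp, and the AP1 promoter peak is the highest of the promoter peaks at 1383 bp.

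Other peaks lay about as far from the 3 genes as neighbouring peaks in general, for which the median gap was 108 kb, or further. The nearest other peaks to the AP1 pair were 207 kb away on the side of lower coordinates, at AT1G68650 (90.8), and 106 kb away on the other side, at AT1G69420 (90.2). For CAL they were 115 kb away at TEM1 (352.8), which encodes a repressor of the florigen gene FT, and 159 kb away at AT1G26773 (249.8). For FUL they were 133 kb away at AT5G60630 (380.4) and 335 kb away at GUT1 (429.2). Of the 12 loci that lie within 2 places of AP1, CAL or FUL in the gene order, AT1G69110 was the 1 tied to a peak, through the AP1 intron peak already described. AT1G69100, the tRNA gene AT1G69130 and AT1G69140 beside AP1 had none. The same held for AT1G26290, AT1G26300, AT1G26320 and AT1G26330 beside CAL. Beside FUL, MYB34 (a regulator of indole glucosinolate synthesis), RLK1, COB (COBRA, a gene of oriented cell expansion) and AT5G60930 had none.

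Of the 19 peaks within 2 score ranks of these, 4 were nearest to a gene of the list of flowering regulators and MADS-box genes described at the end. These were FD, AG, SPL5 and FDP. Of all 529 peaks, 15 were tied to genes of that list by either annotation column, leaving out AP1, CAL and FUL. The list was chosen with earlier results of these data known, so the count is a description. Next to the AP1 promoter peak stood GRF5 (2952.3), a growth-regulating factor gene, at rank 1, AT5G03837 (1643.9) at rank 3 and FD (1549.4), whose bZIP protein partners FT, at rank 4. The AP1 intron peak (336.6) followed directly on that of AGAMOUS (AG, 336.8), the stamen and carpel identity gene, also in an intron, and SPL5 (340.5), an SBP-box gene that promotes flowering, at rank 104. The next ranks belonged to RBL12 (335.8) and RHA1A (334.1). The CAL intron peak was followed by a peak of FDP (304.6), the paralogue of FD, and AT2G45060 (304.5), and preceded by ACS8 (312.3), an ethylene synthesis gene, and AT3G05230 (312.1). The FUL peak stood beside AT5G50740 (156.6), EXL2 (155.5), AT5G25190 (153.3) and AT1G25440 (153.2). The CAL promoter peak stood beside CLE5 (75.4), a signalling peptide gene, AT1G14600 (75.1), the homeobox gene ATH1 (74.9) and AT2G46940 (74.7).

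Most other genes of the MADS-box family had no peak. The family was taken as 99 genes that carry an AGAMOUS-like number in the gene table, together with AG, AP3 and PISTILLATA (PI), which are included in that total. Of the 96 other genes, 7 were tied to a peak (7.29%, 95% Wilson interval 3.58 to 14.3, for counting error only), against 1.50% of all nuclear genes. The family was chosen with earlier results known and no test against all genes was run, so this share is a description. AGL79, the other gene of the AP1 and FUL clade, had none. The 7 were SEP4 (470.9, intron 1), AG (intron 2), the flowering repressor gene MAF4 (295.2, promoter), AGL6 (162.9, intron 1), the petal and stamen identity gene PI (98.2, promoter), AGL44 (55.4, promoter) and SOC1 (53.7, at the 3' end of the next gene). None of these 7 had another peak, which was the usual case. Over the whole list 570 nuclear genes were tied to a peak, and 22 loci, AP1 and CAL among them, were tied to 2 or more. The peaks of the 7 other MADS-box genes were 973 to 1575 bp wide, narrower than the FUL peak and the intron peaks of AP1 and CAL. The promoter peaks of AP1 (1383 bp) and CAL (1299 bp) fell within that range.

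**Figure D4:**
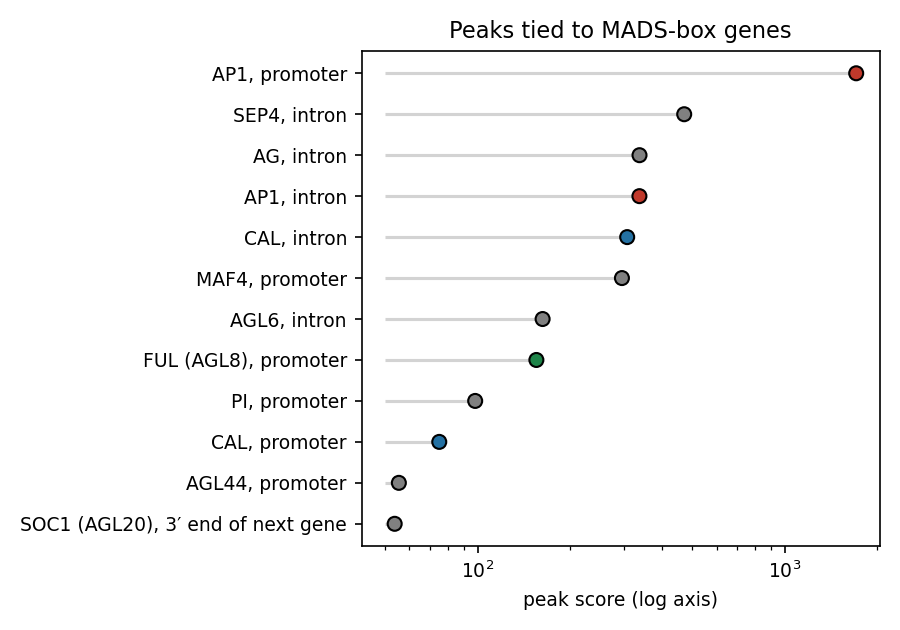
Score on a log axis of each peak tied to a MADS-box gene, ordered by score, with AP1 in red, CAL in blue, FUL in green and other genes in grey, and with the place of the peak beside the gene name. The AP1 promoter peak at 1710.2 stands above SEP4 at 470.9, and the CAL promoter peak at 75.0 lies near the bottom.

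Genes that act with AP1, CAL and FUL were examined as a list of 35 other genes, chosen with earlier results of these data known. Of these, 13 were tied to a peak (37.1%), against 1.50% of all nuclear genes. Because of that choice, this share and those of its parts below are descriptions. Among 13 genes that act upstream of or in parallel with AP1, 8 had one (61.5%). They were LFY itself, its F-box cofactor UFO, FT, FD, FDP, SPL4, SPL5 and LMI2, and TFL1, SPL3, SPL9, SPL15 and LMI1 had none. The LFY peak was centred in intron 2 of LFY, but its nearest promoter was that of another locus. Whether reads from the LFY-GR transgene were placed there was not tested. The UFO peak was classed at the 3' end of another gene, and the FT peak was intergenic, 4020 bp downstream of the FT TSS. Among 11 partners and targets 4 had one (36.4%), namely SOC1, SEP4, AG and PI. AGL24, SVP, SEP1, SEP2, SEP3, AP3 and AP2 had none. A gene without a peak here is one that neither annotation column named. The peak at AT5G03837 (1643.9) has a locus code close to that of TFL1, and a peak at AT1G24265 (95.1) one close to that of SEP3, so these 2 depend on how peaks were assigned. Of 10 further MADS-box genes, AGL6 had one (10.0%), and AGL42, AGL71, AGL72, AGL14, AGL19, SHP1, SHP2, STK and FLC had none. The 15 peaks tied to listed genes had a median score of 305, against 133 over all peaks. Since the genes were chosen with earlier results known, these medians are descriptions. None of the 15 scored above the AP1 promoter peak. The intron peaks of AP1 (336.6) and CAL (307.1) stood just above that median, and the FUL peak (155.4) and the CAL promoter peak (75.0) below it.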

How the data were processed

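ChIP-seq peaks were used as the authors deposited them, as 1 list. Its header names LFYGR2 and the ChIP library is titled LFYGR. The list was taken as that of the ChIP library, but whether the names mean the same library is not stated. Per the file headers, the list came from calling against an unnamed contrast, followed by annotatePeaks.pl of HOMER with the tair10 annotation. The submitters' processing notes name FastQC, MACS 1.4 and HOMER as tools and TAIR10 as the build. Not given in the sources used here are the aligner, the threshold, the handling of duplicate or multiply placed reads, and pooling. The peak score is the value deposited by the authors, with no stated scale, and served to rank peaks within the list.

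Positions and the distance of a peak centre to the TSS were read from the same list. Spans relative to the TSS were computed from them. For all 16 transcripts named by 2 peaks, both gave the same TSS within 1 bp on 1 strand. Gene names, order and family membership came from RefSeq (assembly TAIR10.1), whose coordinates were not used. Named were AP1, CAL and FUL, the loci beside them, genes within 2 score ranks, members of the lists with a peak and genes with the same arrangement. BOP1, the other genes with 2 close peaks, the MADS-box genes outside the lists and list members without a peak were named after their values were seen. So were the genes of the nearest other peaks, CUC3, CSLA02 and AT1G24265. Members and lists were chosen with earlier results of these data known. No test between conditions was possible with 1 library of each kind. Alternatives changed the column that ties a peak to a gene, the score limit, the TSS distance limit and the ranking. Python 3.11.15, SciPy 1.17.1, NumPy 2.4.6, pandas 2.3.3 and matplotlib 3.10.9 were used, and the span and assignment steps were tested on simulated data.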

Additional observations from a re-analysis of the deposited data

How the results depend on the processing

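The 5 peaks at AP1, CAL and FUL became 3 among the 133 highest-scoring peaks, where the FUL peak and the CAL promoter peak dropped out, and 3 within 1 kb of the nearest TSS, where both intron peaks did. The other limits and assignment columns gave 4 or 5. When peaks were ranked by score divided by width, the intron peaks stood at rank 230 in place of 106 (AP1) and 250 in place of 120 (CAL), which follows from their width, while the promoter peaks stood at rank 3 (AP1), 416 (CAL) and 331 (FUL). Of 113 MADS-box and listed genes, with AP1, CAL and FUL included, 18 were tied to a peak, against 1.50% of all nuclear genes. Among the 133 highest-scoring peaks the count was 10, and the share of all genes was not computed there. The genes were chosen with earlier results known, so these counts are descriptions. The count of genes with both a promoter and an intron peak, 2, became 3 with any place inside the gene. The upstream limit of the promoter class was not varied. The planned search for the LFY core motif was not run, since promoter sequences were not used here. No paired analysis was possible because each group has 1 library. Depth is unknown, so the precision of a single peak cannot be given.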
